A study of Homo sapiens with 6 samples.

Results

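The EGF receptor family described here is a set of 10 genes, taken by gene symbol from the 32299 genes of the deposited table: the receptors EGFR, ERBB2 and ERBB3, the ligands HBEGF, NRG1, BTC, TGFA, EREG and AREG, and the feedback inhibitor ERRFI1. All 10 were found, and 8 of them passed the filter on low counts that left 17927 genes for testing. ERBB3 and AREG did not pass it. The libraries came from U87, an established human glioblastoma cell line. By their labels 3 libraries were made from cells that overexpress tau, the microtubule-associated protein of neurons, and 3 from cells transfected with a control vector. No label gives the promoter of the tau construct, the time after transfection or whether replicate libraries stem from separate cultures. The p-values therefore reflect library-to-library spread that may be technical.

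Receptors of this family are tyrosine kinases of the cell surface that work in pairs. EGFR binds EGF, TGFA and AREG, and shares HBEGF, BTC and EREG with ERBB4, whereas the neuregulin NRG1 binds ERBB3 and ERBB4. ERBB2 has no known ligand of its own and serves as the favoured partner of the others, and ERBB3 signals mainly through its partner because its own kinase is weak. The ligands are made as membrane-bound precursors that metalloproteases cut free. ERRFI1, also called MIG6, binds the kinase domain of EGFR, blocks it and is itself induced by receptor signalling. EGFR is often amplified in glioblastoma.

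Promoter windows of 6 genes are shown because they belong to the receptor and the inhibitor that moved in opposite directions, to a pair of ligands that rose, and to neighbouring ligand genes of chromosome 4, of which EREG had reads in every library and AREG in no library. They are RefSeq sequences of GRCh38.p14, running from 250 bases before to 50 bases after the gene's start, 5′ to 3′ on the gene's strand, and in each the start is the one in the deposited table. Capitals mark matches on either strand to the GC box GGGCGG, the TATA box TATAAA and the cyclic AMP response element (CRE) TGACGTCA. The AP-1 motif TGANTCA was also searched and was in none of the 6 windows. A further EGFR window, chr7:55109589-55109888, whose start is not the deposited one, is not shown. It was 42.0% G or C and held AP-1 motifs at -232 and -136 and TATA boxes at -146 and -36.
EGFR promoter, chr7:55018767-55019066, plus strand: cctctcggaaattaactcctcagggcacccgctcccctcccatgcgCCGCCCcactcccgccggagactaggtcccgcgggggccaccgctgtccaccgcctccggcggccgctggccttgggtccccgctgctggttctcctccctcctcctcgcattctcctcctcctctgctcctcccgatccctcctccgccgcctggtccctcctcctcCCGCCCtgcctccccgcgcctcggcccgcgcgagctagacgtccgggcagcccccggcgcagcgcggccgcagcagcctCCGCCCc
ERRFI1 promoter, chr1:8026260-8026559, minus strand: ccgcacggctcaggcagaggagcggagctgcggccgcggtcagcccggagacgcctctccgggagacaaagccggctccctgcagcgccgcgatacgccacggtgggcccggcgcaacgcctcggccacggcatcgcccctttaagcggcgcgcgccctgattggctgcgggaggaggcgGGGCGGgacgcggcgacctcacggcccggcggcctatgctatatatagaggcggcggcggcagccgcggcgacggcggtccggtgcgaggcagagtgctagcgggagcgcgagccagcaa
HBEGF promoter, chr5:140346554-140346853, minus strand: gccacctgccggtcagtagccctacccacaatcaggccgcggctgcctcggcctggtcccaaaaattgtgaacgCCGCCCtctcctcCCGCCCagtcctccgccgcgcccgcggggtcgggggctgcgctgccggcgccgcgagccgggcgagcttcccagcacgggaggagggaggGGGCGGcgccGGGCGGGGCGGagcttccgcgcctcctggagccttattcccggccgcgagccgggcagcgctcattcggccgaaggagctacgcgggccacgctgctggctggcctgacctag
BTC promoter, chr4:74794474-74794773, minus strand: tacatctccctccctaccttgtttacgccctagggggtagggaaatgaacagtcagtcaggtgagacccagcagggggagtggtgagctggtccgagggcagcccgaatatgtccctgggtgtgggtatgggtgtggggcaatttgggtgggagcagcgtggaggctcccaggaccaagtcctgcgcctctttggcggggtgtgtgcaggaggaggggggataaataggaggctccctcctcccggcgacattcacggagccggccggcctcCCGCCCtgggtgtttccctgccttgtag
EREG promoter, chr4:74364895-74365194, plus strand: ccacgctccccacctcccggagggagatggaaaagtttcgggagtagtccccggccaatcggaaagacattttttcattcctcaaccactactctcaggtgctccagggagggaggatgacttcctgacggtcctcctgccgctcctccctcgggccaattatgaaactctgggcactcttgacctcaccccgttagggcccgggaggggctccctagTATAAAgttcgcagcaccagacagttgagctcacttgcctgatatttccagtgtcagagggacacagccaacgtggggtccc
AREG promoter, chr4:74444886-74445185, plus strand: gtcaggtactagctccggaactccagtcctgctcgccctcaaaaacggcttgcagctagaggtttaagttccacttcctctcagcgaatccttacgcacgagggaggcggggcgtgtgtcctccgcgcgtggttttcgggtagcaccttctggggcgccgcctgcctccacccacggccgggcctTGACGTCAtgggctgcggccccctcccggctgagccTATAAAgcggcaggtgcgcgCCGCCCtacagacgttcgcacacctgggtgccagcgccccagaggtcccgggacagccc
The EGFR window was 75.3% G or C and held 3 GC boxes, at positions -204, -36 and 43 relative to the gene's start, and no TATA box. The HBEGF window was 75.0% G or C and held 5 GC boxes, at -176, -163, -73, -63 and -58, of which the last and its neighbour overlap. The ERRFI1 window, 74.7% G or C, held 1 GC box, as did the BTC window, 63.0% G or C. EREG and AREG, at 57.7% and 66.3% G or C, each held a TATA box, at -32 and -29, and AREG also held a CRE at -65 and a GC box at -9. Of 35116 promoter windows of the same length, 45.0% held the GC box, 11.5% the TATA box, 1.85% the CRE and 7.71% the AP-1 motif, and the median G or C share was 58.7%. These matches are a description of letters, and no factor's binding was measured. Promoter entries matched 8 of the 10 members. ERBB3 and NRG1 were not matched.

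The labels were first checked on MAPT, the gene that encodes tau, which ran against them. MAPT (ENSG00000186868) counted 145, 150 and 176 in the tau-labelled libraries 1, 2 and 3, against 279, 391 and 345 in the control-labelled libraries, and its log2 change was -1.20 (adjusted p = 0.00151, edgeR's quasi-likelihood F test adjusted after Benjamini and Hochberg). It was low in both groups, with means of 0.156 FPKM in the tau-labelled and 0.333 FPKM in the control-labelled libraries. The call was lost in 2 of 17 other settings, limma on log2(FPKM + 0.05) and on log2(TPM + 0.5) (limma adjusted p = 0.0508 and 0.056). Libraries are therefore named by label, and every log2 change printed is tau-labelled over control-labelled. Total counts ran from 58229083 to 65512119 per library. VIM, a mesenchymal filament protein, averaged 1780 FPKM in the tau-labelled and 1350 FPKM in the control-labelled libraries, and CHI3L1, a secreted marker of mesenchymal glioma, 45.6 FPKM in the tau-labelled and 277 FPKM in the control-labelled libraries. The glial markers GFAP, SOX2, S100B, OLIG2 and FABP7 had mean levels of 0.403 FPKM or less in either group. NES of the same list averaged 2.95 FPKM in the tau-labelled and 12.1 FPKM in the control-labelled libraries (log2 change -2.15, edgeR adjusted p = 3.49e-06). CD44 averaged 94.7 FPKM and TNC 130 FPKM in the tau-labelled libraries, against 84.6 and 147 FPKM in the control-labelled ones. The summed level of 8 epithelial markers, led by KRT8 and CLDN4, ran from 1.55 to 2.31 FPKM in the tau-labelled and from 7.01 to 7.98 FPKM in the control-labelled libraries, with KRT14 at 0. That of 4 endothelial markers, led by PECAM1 and VWF, ran from 0.418 to 0.520 FPKM in the tau-labelled and from 2.54 to 2.97 FPKM in the control-labelled libraries. TUBB3 and SNAP25 led 4 neuronal markers, whose sum ran from 38.4 to 48.7 FPKM in the tau-labelled and from 24.7 to 32.8 FPKM in the control-labelled libraries. TUBB3 made up nearly all of this sum, with means of 41.1 FPKM in the tau-labelled and 27.4 FPKM in the control-labelled libraries, while SNAP25 averaged 0.701 FPKM in the tau-labelled and 0.704 FPKM in the control-labelled libraries. CD68 of macrophages, the leukocyte marker that was matched, averaged 80.2 FPKM in the tau-labelled and 151 FPKM in the control-labelled libraries. Their part in the results on the family was not tested.

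EGFR rose and its inhibitor ERRFI1 fell in the tau-labelled libraries, and the ligands HBEGF, NRG1 and BTC rose. ERBB2, at a low level, fell, while TGFA and EREG did not pass the test. So 4 of the 8 tested members rose and 2 fell at an adjusted p below 0.05, where 42.7% of all 17927 genes tested were called, 21.3% having risen and 21.4% having fallen. The libraries of one label lay wholly beyond those of the other for the same 6 members, and for 54.7% of all genes tested. The median log2 change of the 8 tested members was 0.469, beside 0.00439 for all genes tested. Limma on log2 FPKM or TPM gave 4585 to 4657 genes that rose and 2862 to 3086 that fell, against 3822 and 3830 with edgeR, and the median of all genes then stood at 0.0872 to 0.137. Both groups are bulk cultures, so fewer cells that make a message and less of it per cell cannot be told apart.

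**Figure D1:**
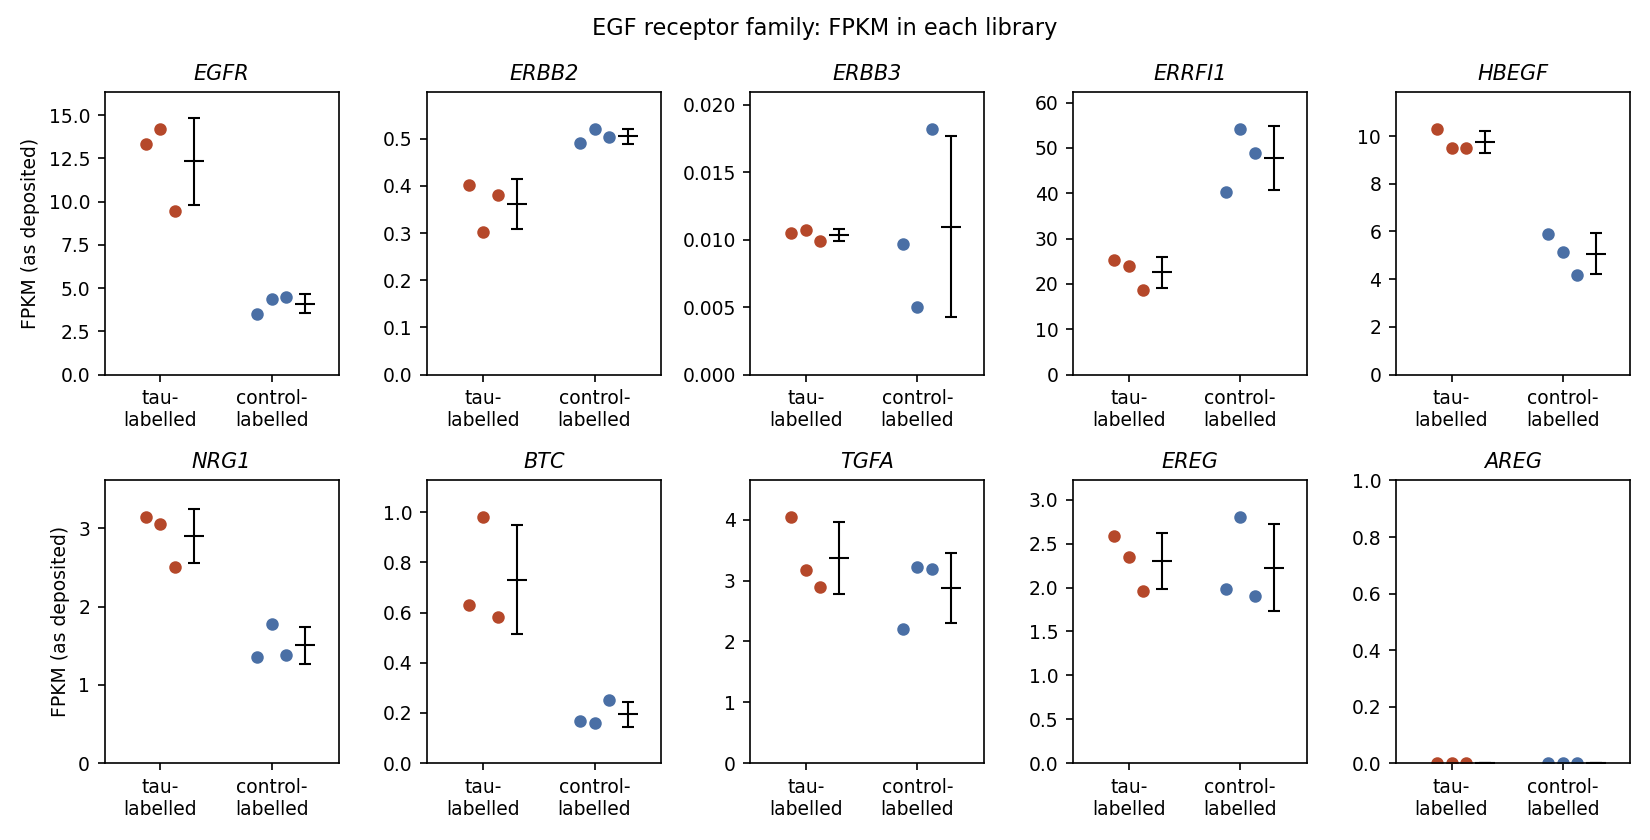
Deposited FPKM of each of the 10 members in the 3 tau-labelled and the 3 control-labelled libraries, with the mean and SD beside the points and a linear axis from 0 for each gene. The groups are apart for EGFR, ERBB2, ERRFI1, HBEGF, NRG1 and BTC and overlap for ERBB3, TGFA and EREG, and AREG is at 0 in every library.

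EGFR, the receptor of the family's EGF-type ligands (ENSG00000146648, chromosome 7, 55019017 to 55211628 on GRCh38), was the most abundant receptor in both groups. Its level was 13.3, 14.2 and 9.47 FPKM in tau-labelled libraries 1, 2 and 3, against 3.48, 4.35 and 4.46 FPKM in the control-labelled ones. All tau-labelled libraries lay above all control-labelled ones, and tau-labelled library 3 was the lowest of its group. The mean was 12.3 ± 2.52 FPKM in the tau-labelled libraries, from 8302 to 11143 counts each, and 4.10 ± 0.538 FPKM in the control-labelled libraries, from 2967 to 3802 counts each (SD, n = 3 each). By edgeR's fit EGFR rose 2.77-fold, a log2 change of 1.47 (95% interval 1.13 to 1.81, SE 0.153, adjusted p = 9.89e-05). Fitted folds carry TMM scaling between libraries and so differ from ratios of mean FPKM. Of the 3822 genes that rose, 14.1% had a log2 change at least as large. By mean FPKM, 81.3% of all tested genes lay below EGFR in the tau-labelled and 63.5% in the control-labelled libraries. With offsets for GC content and transcript length its log2 change was 0.94 (edgeR adjusted p = 0.00562). The longest annotated EGFR transcript, 9821 bases, is longer than the median of 3109 over tested genes. EGFR-AS1, which lies within EGFR on the opposite strand, had 0 to 8 counts in any library.

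ERBB2, the ligandless partner receptor also known as HER2 (ENSG00000141736, chromosome 17, 39687914 to 39730426), was expressed at a much lower level than EGFR. It had 0.402, 0.302 and 0.380 FPKM in tau-labelled libraries 1, 2 and 3, against 0.491, 0.521 and 0.503 FPKM in the control-labelled libraries. The groups did not overlap. ERBB2 fell 1.51-fold (log2 change -0.60, 95% interval -1.01 to -0.18, edgeR adjusted p = 0.0281), but the call was lost in 11 of 17 other settings. It was lost without tau-labelled library 1 (adjusted p = 0.0511) or 2 (0.117), without control-labelled library 1 (0.0676) or 2 (0.0872), and with library size alone (0.0591), each in edgeR's test. ERBB2 had 199 to 279 counts in the tau-labelled and 350 to 358 in the control-labelled libraries, and its ends overlap PGAP3 and MIEN1 on the opposite strand, with up to 807 and 2805 counts in a library. Whether the authors counted by strand is not stated, so reads of these neighbours may be included. PGAP3, a remodelling enzyme of membrane anchors, had a log2 change of -0.62 (edgeR adjusted p = 0.0103) and MIEN1 one of -0.13 (adjusted p = 0.468).

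ERBB3, the kinase-weak receptor of the neuregulins (ENSG00000065361, chromosome 12, 56076799 to 56103486), had 8, 9 and 9 counts in the tau-labelled and 9, 4 and 16 counts in the control-labelled libraries, too few for testing. Its mean level was 0.0103 FPKM in the tau-labelled and 0.0109 FPKM in the control-labelled libraries. ERBB4, the remaining receptor of the family and not among the 10 genes, had 0 counts in the tau-labelled libraries and 3, 4 and 0 counts in the control-labelled ones, and no fold is given at this depth. Per length, EGFR message was 24.9 to 47.0 times that of ERBB2 in the tau-labelled and 7.09 to 8.87 times in the control-labelled libraries.

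ERRFI1, the inhibitor of the EGFR kinase (ENSG00000116285, chromosome 1, 8004404 to 8026309), had the highest FPKM of the 10 genes in both groups. Its level was 25.2, 23.9 and 18.7 FPKM in tau-labelled libraries 1, 2 and 3, and 40.2, 54.2 and 48.8 FPKM in the control-labelled ones. Every tau-labelled library lay below every control-labelled one. ERRFI1 fell 2.29-fold (log2 change -1.20, 95% interval -1.50 to -0.89, SE 0.138, edgeR adjusted p = 0.000172), and its log2 change ran from -1.34 to -1.05 over 18 other settings, each past the threshold. Per length, ERRFI1 message was 1.89, 1.68 and 1.97 times that of EGFR in the tau-labelled and 11.6, 12.5 and 10.9 times in the control-labelled libraries. A gene on the opposite strand that overlaps the end of ERRFI1, ENSG00000284747, had 9 to 43 counts in any library.

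**Figure D2:**
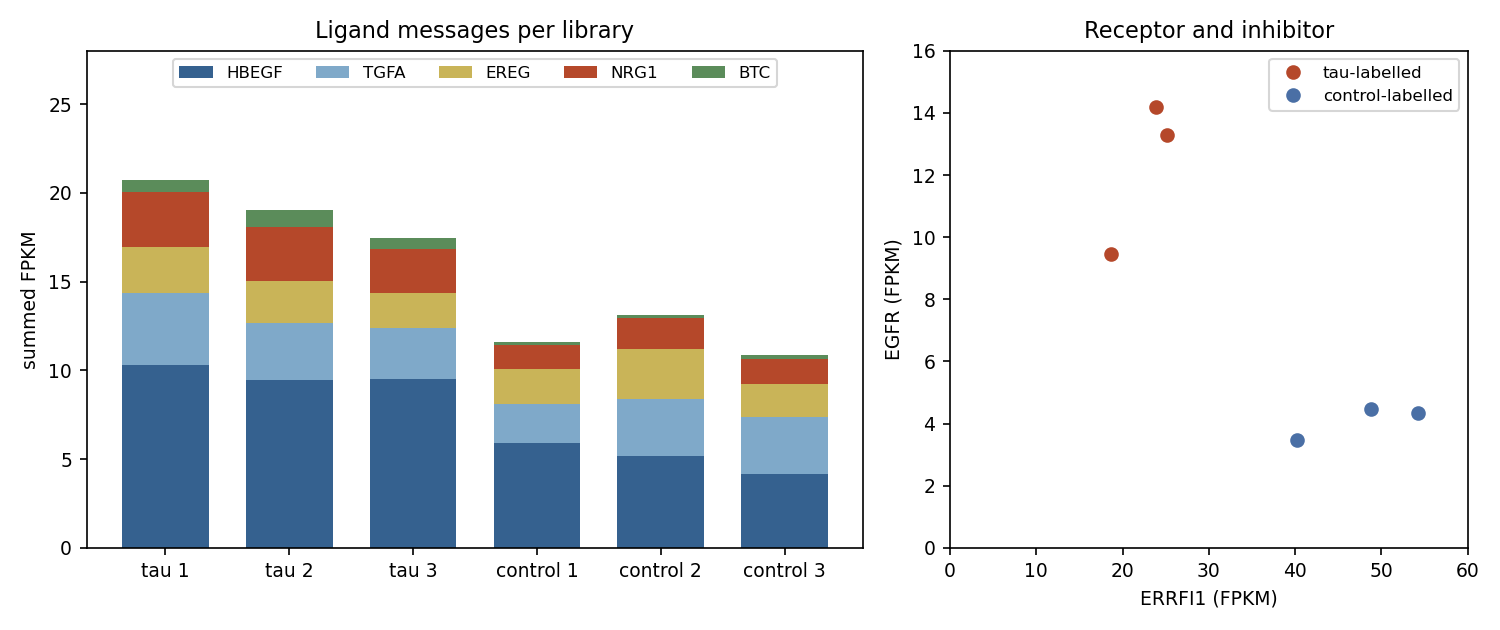
Left, deposited FPKM of the 5 ligands with reads, stacked for each library; right, EGFR against ERRFI1 in FPKM, 1 point per library. The stacks reach 17.4 to 20.7 FPKM in the tau-labelled and 10.9 to 13.1 FPKM in the control-labelled libraries, and the tau-labelled points lie at lower ERRFI1 and higher EGFR.

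HBEGF, a heparin-binding ligand of EGFR and ERBB4 that also serves as the receptor of diphtheria toxin (ENSG00000113070, chromosome 5, 140332843 to 140346603), was the ligand of highest FPKM. It stood at 10.3, 9.48 and 9.49 FPKM in tau-labelled libraries 1, 2 and 3, and at 5.88, 5.15 and 4.16 FPKM in the control-labelled ones. The groups were apart, and the tau-labelled libraries lay close together, with a coefficient of variation of 4.77% against 17.0% in the control-labelled libraries. HBEGF rose 1.77-fold (log2 change 0.82, 95% interval 0.47 to 1.17, edgeR adjusted p = 0.00255). It passed the threshold in each of 18 other settings, with log2 changes from 0.67 to 0.98.

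NRG1, the ligand of ERBB3 and ERBB4 (ENSG00000157168, chromosome 8, 31639222 to 32855666), stood at 3.14, 3.05 and 2.51 FPKM in tau-labelled libraries 1, 2 and 3, and at 1.35, 1.78 and 1.38 FPKM in the control-labelled ones. All tau-labelled values exceeded all control-labelled values. NRG1 rose 1.77-fold (log2 change 0.83, 95% interval 0.51 to 1.14, edgeR adjusted p = 0.00134), and stood at 0.49 with GC and length offsets (adjusted p = 0.0124). Its receptors ERBB3 and ERBB4 had at most 16 and 4 counts in any library.

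BTC, betacellulin, a ligand of EGFR and ERBB4 (ENSG00000174808, chromosome 4, 74744759 to 74794523), was low and had the largest fitted change of the 8 tested members. The tau-labelled libraries 1, 2 and 3 held 108, 164 and 109 counts of it and the control-labelled ones 31, 28 and 46, or 0.628, 0.979 and 0.583 FPKM in the tau-labelled and 0.169, 0.161 and 0.252 FPKM in the control-labelled libraries. The groups did not overlap, and tau-labelled library 2 was the highest. BTC rose 3.44-fold (log2 change 1.78, 95% interval 1.02 to 2.55, edgeR adjusted p = 0.00259). On the log2(FPKM + 0.5) scale, where the pseudocount is of the size of its level, the log2 change was 0.81 (limma adjusted p = 0.00375).

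TGFA and EREG did not pass the test. TGFA, transforming growth factor alpha (ENSG00000163235, chromosome 2, 70447284 to 70553826), had 4.04, 3.18 and 2.90 FPKM in the tau-labelled and 2.21, 3.23 and 3.19 FPKM in the control-labelled libraries. These ranges overlapped, and the log2 change was 0.12 (95% interval -0.28 to 0.51, edgeR adjusted p = 0.637), turning to -0.02 without tau-labelled library 1. EREG, epiregulin (ENSG00000124882, chromosome 4, 74365145 to 74388749), had 2.59, 2.35 and 1.96 FPKM in the tau-labelled and 1.98, 2.80 and 1.90 FPKM in the control-labelled libraries. Here too the groups overlapped, with a log2 change of -0.07 (95% interval -0.49 to 0.34, edgeR adjusted p = 0.777) that was 0.04 with library size alone, 0.11 without control-labelled library 2 and -0.56 with GC and length offsets (adjusted p = 0.0516). Both intervals hold rises as well as falls.

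AREG, amphiregulin (ENSG00000109321, chromosome 4, 74445136 to 74455005), was listed at 0 counts in all 6 libraries, which allows up to 3 counts, or 0.0458 to 0.0515 CPM, in a library by counting error alone. Whether the authors' counting left the gene out was not tested, so this 0 need not be a level. EREG, AREG and BTC lie with EPGN, epigen, another EGFR ligand, within 486 kilobases of chromosome 4, in the order EPGN, EREG, AREG, BTC. EPGN had 13, 4 and 4 counts in the tau-labelled and 0, 0 and 13 counts in the control-labelled libraries, too few for testing. EREG had 743 to 1034 counts in any library and BTC 28 to 164, while EPGN had at most 13 and AREG was listed at 0. Of the pair that could be tested BTC rose and EREG did not pass, and the difference between their changes was not tested.

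Together the 6 ligands summed to 20.7, 19.1 and 17.4 FPKM in the tau-labelled and 11.6, 13.1 and 10.9 FPKM in the control-labelled libraries, with no overlap. HBEGF supplied 51.3% ± 2.68 of that sum in the tau-labelled and 42.7% ± 6.93 in the control-labelled libraries (SD, n = 3 each), with overlap, since tau-labelled libraries 1 and 2 had 49.8% each and control-labelled library 1 had 50.7%. The share of BTC was 3.84% ± 1.14 in the tau-labelled and 1.67% ± 0.570 in the control-labelled libraries, and that of NRG1 15.2% ± 0.812 in the tau-labelled and 12.6% ± 0.957 in the control-labelled libraries. The share of EREG was 12.0% ± 0.690 in the tau-labelled and 18.6% ± 2.36 in the control-labelled libraries, without overlap. That of TGFA was 17.6% ± 1.66 in the tau-labelled and 24.3% ± 5.11 in the control-labelled libraries, with overlap, since tau-labelled library 1 had 19.5% and control-labelled library 1 had 19.1%. These shares follow from the changes given for each gene and were not tested. They also depend on the gene lengths behind the deposited FPKM. By counts NRG1 exceeded HBEGF, with 3778 to 4321 against 1781 to 1991 in the tau-labelled libraries. In the control-labelled libraries NRG1 had 1983 to 2467 counts against 849 to 1199.

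In the tau-labelled libraries the order of levels per length was ERRFI1, EGFR, HBEGF, TGFA, NRG1, EREG, BTC, ERBB2, ERBB3 and AREG. EGFR and HBEGF overlapped in range there, as did TGFA and NRG1, and NRG1 and EREG. In the control-labelled libraries HBEGF stood above EGFR and EREG above NRG1, and ERBB2 stood above BTC. HBEGF and EGFR overlapped there too, HBEGF with 4.16 to 5.88 FPKM and EGFR with 3.48 to 4.46 FPKM, as did TGFA and EREG. ERBB2 and BTC did not overlap in either group and changed places between them.

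**Figure D3:**
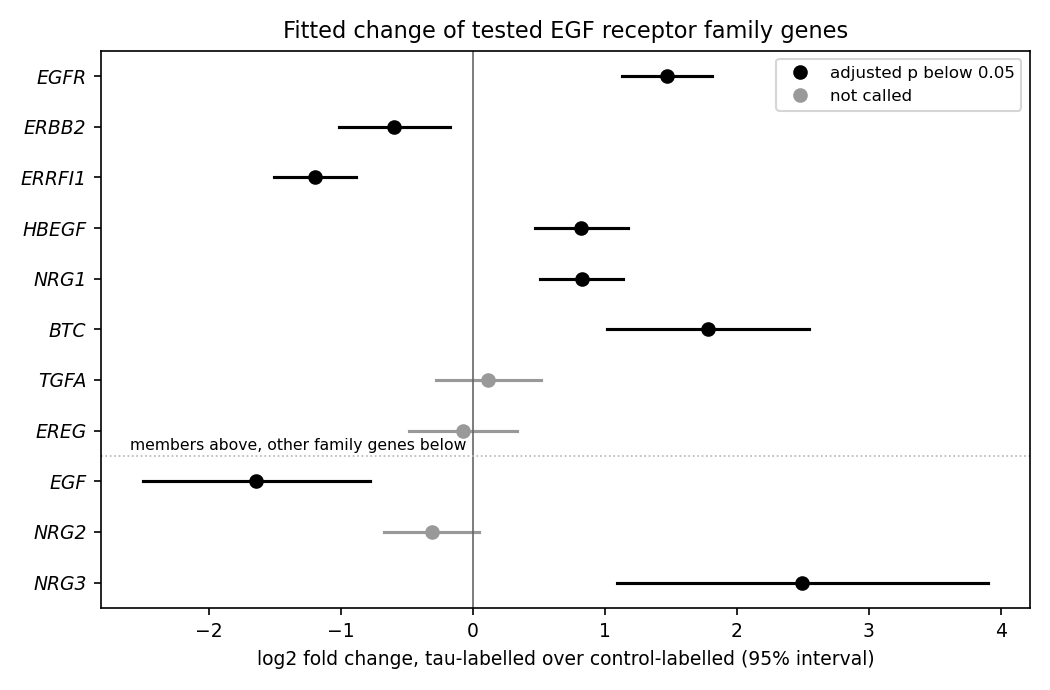
Fitted log2 change, tau-labelled over control-labelled, with its 95% interval, for the 8 tested members and for 3 further ligand genes of the family. EGFR, HBEGF, NRG1, BTC and NRG3 lie above 0 and ERBB2, ERRFI1 and EGF below it, while the intervals of TGFA, EREG and NRG2 cross 0. NRG3 passed the filter on low counts through the tau-labelled libraries alone, so its rise is not read as a result.

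The 6 further receptor and ligand genes of the family, EGF, NRG2, NRG3, NRG4, EPGN and ERBB4, were examined too, and 3 of them had counts enough for testing. EGF itself was low and fell: 29, 57 and 27 counts in the tau-labelled against 104, 125 and 104 counts in the control-labelled libraries, a log2 change of -1.64 (SE 0.383, edgeR adjusted p = 0.00702). Its call was lost with limma on FPKM or TPM (adjusted p = 0.0579 to 0.0629). NRG3, a ligand of ERBB4, had 41, 40 and 22 counts in the tau-labelled and 7, 4 and 6 counts in the control-labelled libraries, and passed the filter through the tau-labelled libraries alone. Its log2 change was 2.50 (SE 0.627). A filter passed through the higher group alone favours a rise, so its call (edgeR adjusted p = 0.00999) is not read as a result. The call was also lost without tau-labelled library 2 (edgeR adjusted p = 0.0529). NRG2, a ligand of ERBB3 and ERBB4, had 3.55, 3.30 and 3.70 FPKM in the tau-labelled and 4.75, 3.41 and 3.89 FPKM in the control-labelled libraries, groups that overlapped (log2 change -0.31, 95% interval -0.67 to 0.05, adjusted p = 0.150). NRG4 had at most 5 counts in any library.

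Among 12 genes of ligand shedding and transport, 2 rose, 3 fell and 7 did not pass, with a median log2 change of -0.16. The 16.7% that rose and 25.0% that fell stand beside 21.3% and 21.4% over all genes tested. ADAM9, a metalloprotease of the family that releases ligands, rose by 0.70 (edgeR adjusted p = 0.00395), and stood at 0.38 with GC and length offsets (adjusted p = 0.00776). FRMD8, which stabilises the sheddase complex, rose by 0.45 (adjusted p = 0.0316), and stood at 0.72 with the offsets. Without tau-labelled library 1, 2 or 3 or control-labelled library 2 or 3 the FRMD8 call was lost (edgeR adjusted p = 0.0521 to 0.139). ADAM19, a protease that cuts neuregulin, fell with a log2 change of -1.01 (adjusted p = 0.000191), and RHBDL2, a rhomboid protease of the membrane, with one of -1.39 (adjusted p = 0.00386). RHBDF1, an inactive rhomboid that guides sheddase transport, had -0.44 (adjusted p = 0.0463) with overlapping groups, a call lost in 11 of 18 other settings, among them those without tau-labelled library 1 (0.160) or 2 (0.166) and control-labelled library 1 (0.120) or 2 (0.136).

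Of 23 tested genes listed under receptor downregulation, 6 rose, 3 fell and 14 did not pass (median 0.19). The list also holds phosphatases such as PTPRJ, and the effect of each gene on the receptor was not measured. Of the list 26.1% rose, against 21.3% of all genes tested, and 13% fell, against 21.4%. With GC and length offsets 6 rose and 8 fell, beside 3811 and 4203 of 17547 genes tested, so the low share that fell did not hold. LRIG1, a membrane protein that promotes the degradation of EGFR family receptors, had 9.76 ± 0.333 FPKM in the tau-labelled and 18.5 ± 1.22 FPKM in the control-labelled libraries (SD, n = 3 each) and fell 2.06-fold (log2 change -1.04, SE 0.0984, edgeR adjusted p = 6.07e-05). RNF41, a ubiquitin ligase of ERBB3, and STAMBP, a deubiquitinase of sorting endosomes, fell with log2 changes of -0.43 and -0.42. The RNF41 call was lost in 9 of 18 other settings, among them those without tau-labelled library 1 or 2 or control-labelled library 2 (edgeR adjusted p = 0.110 to 0.114). STAMBP stood at -0.75 with GC and length offsets (edgeR adjusted p = 0.000359) and lost its call in 6 of 18, among them that without control-labelled library 2 (edgeR adjusted p = 0.0652). EPS15L1 and STAM, adaptors of endocytosis and of endosomal sorting, rose with log2 changes of 0.93 and 0.78. PTPRJ, a receptor phosphatase, rose by 0.68, and stood at 0.26 with GC and length offsets (edgeR adjusted p = 0.294).

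Of 36 adaptors and cytoplasmic effectors, 13 rose, 6 fell and 17 did not pass, with a median of -0.000477. The share that rose was 36.1%, beside 21.3% of all genes tested, and the share that fell 16.7%, beside 21.4%. With GC and length offsets 10 rose and 9 fell, beside 3811 and 4203 of 17547 genes tested, so the lean towards rises was smaller. SHC1, the adaptor that links activated receptors to RAS, was abundant and fell 2.21-fold, with means of 57.4 ± 5.82 FPKM in the tau-labelled and 117 ± 3.45 FPKM in the control-labelled libraries (SD, n = 3 each; edgeR adjusted p = 7.86e-05). MAPK3, which encodes ERK1, fell 2.07-fold, and MAP2K1, which encodes the kinase MEK1, fell with a log2 change of -0.42, a call lost without tau-labelled library 2 (edgeR adjusted p = 0.0510). SOS1, the exchange factor that activates RAS, rose 2.37-fold, with means of 1.74 ± 0.191 FPKM in the tau-labelled and 0.676 ± 0.0904 FPKM in the control-labelled libraries (edgeR adjusted p = 0.000105). PIK3R1, a regulatory subunit of phosphatidylinositol 3-kinase, rose 2.13-fold and BRAF, a kinase above MEK, 1.81-fold. With GC and length offsets SOS1 stood at 0.58 and PIK3R1 at 0.60 on the log2 scale (edgeR adjusted p = 0.0133 and 0.001), and BRAF at 0.19 with its call lost (adjusted p = 0.444).

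Of 36 genes known to be induced by EGF receptor signalling, 12 rose, 8 fell and 16 did not pass, with a median of 0.18. CCND1, cyclin D1, rose with a log2 change of 1.86, KLF2, a zinc finger factor, with 1.77 and MYC with 1.14. IL11, a cytokine, fell with -1.73, FOSB, a subunit of AP-1, with -1.32, and NAB2, a repressor of EGR factors, with -0.98. Each of these 6 calls held in every other setting with a value. FOSB was low, with means of 0.278 FPKM in the tau-labelled and 0.646 FPKM in the control-labelled libraries. Of the other FOS and JUN genes listed, FOSL1 rose by 1.02 and JUNB fell with -0.67, while FOS and JUN did not pass. FOSL1 averaged 226 FPKM in the tau-labelled and 102 FPKM in the control-labelled libraries. The list thus held genes called in both directions, and the share that rose was 33.3% against 21.3% over all genes tested, and the share that fell 22.2% against 21.4%. With GC and length offsets 16 rose and 8 fell, beside 3811 and 4203 of 17547 genes tested. Over 18 other settings 10 to 17 of the list rose, while 2843 to 4657 of all genes tested rose. Called shares were higher among the 11129 genes of mean FPKM of at least 1, of which 3012 rose and 2979 fell. In that setting 12 genes of this list rose and 8 fell, and 11 adaptors and effectors rose and 6 fell. It leaves out list genes of lower level, such as FOSB and BRAF, so these counts are not shares of 36. Without tau-labelled library 2, 5 genes induced by EGF receptor signalling fell in place of 8. Over all genes 2918 of 18656 tested then fell, in place of 3830 of 17927.

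**Figure D4:**
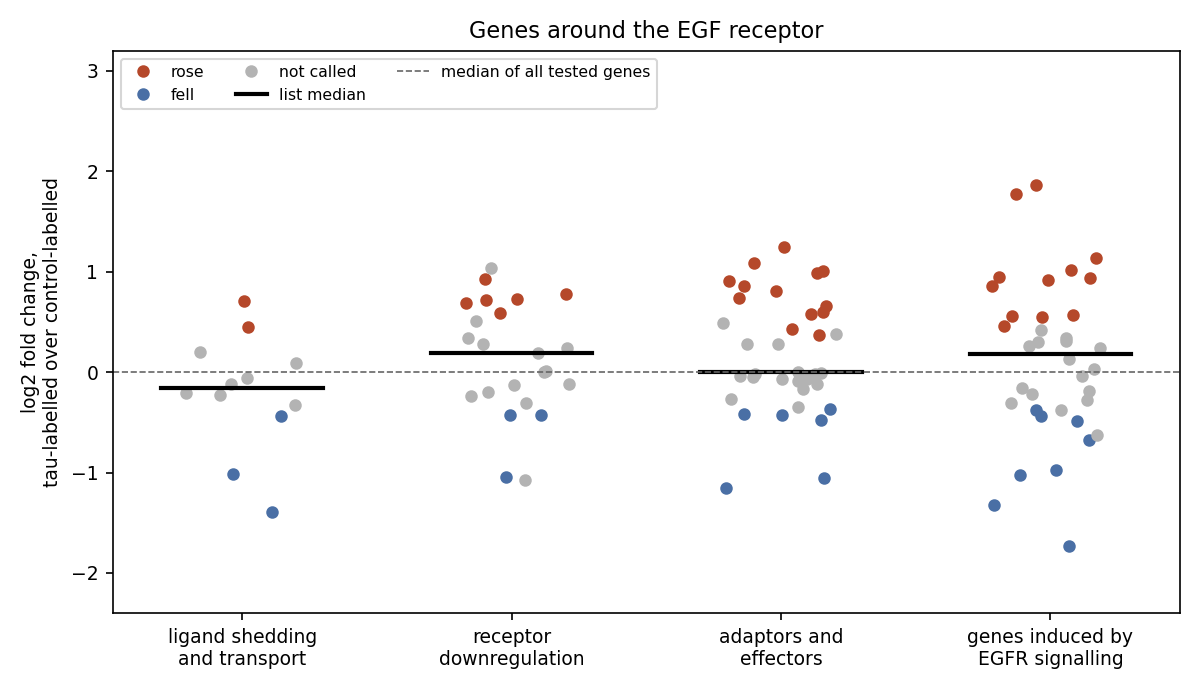
Fitted log2 change of each tested gene, tau-labelled over control-labelled, in 4 lists of genes that act around the EGF receptor, with the list median as a bar and the median of all tested genes as a dashed line. Each list holds genes that rose and genes that fell, and the list medians lie between -0.16 and 0.19.

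The genes whose log2 CPM followed EGFR most closely over the 6 libraries, among 5919 protein-coding genes of at least 5 FPKM, were ATP6V1D, PAK2 and PMAIP1, with Pearson correlations of 0.999, 0.999 and 0.998. Those closest to HBEGF were CCN1, SCAF4 and PPP2CB, with 0.998, 0.996 and 0.995. The 6 points of each correlation fall into the 2 labelled groups and share library and depth, so these values describe likeness over these libraries alone.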

How the data were processed

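RNA of 6 U87 libraries was read as paired ends after poly(A) selection and dUTP strand marking, per the labels' protocols. The authors' deposited table gives whole-number counts and FPKM for each gene. Tools named per the submitters' processing notes are cutadapt 1.9, HISAT2 2.2.1, StringTie 2.1.6, DESeq2 and edgeR, on build GRCh38. Which tool counted, whether by strand and on which annotation release is not given in the sources used here. In the deposited counts 6724 values equal 4, more than equal 1, 2 or 3 (5596, 4435 and 3295), so they may not be direct counts of read pairs, and floors cover counting error only.

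Groups came from the sample titles, and 0 columns stayed unmapped. The counts went into edgeR 4.0.16 under R 4.3.3 (filterByExpr with a minimum count of 10 and total of 15, TMM, quasi-likelihood test, group as the sole term, two-sided, Benjamini-Hochberg over 17927 genes). FPKM shows levels. Alternatives used limma 3.58.1, DESeq2 1.42.0, other scalings and filters, and each library left out. The edgeR fit was tested on simulated data with 200 genes changed, against 7652 genes called here. That setting differs from the data, so it does not vouch for the scaling or the rate of false calls. GC content and length are those of the longest GENCODE transcript. Over 17547 genes the log2 change had a Spearman correlation of -0.314 with GC content and 0.188 with length. The 10 members and all lists were chosen with earlier results of these data known. Genes named from lists are the 3 called with the smallest p in each direction, with 2 per marker list by level. Further FOS and JUN genes and glial markers are named beside them. Library pairs within a group differed by more than sampling noise.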

Additional observations from a re-analysis of the deposited data

How the results depend on the processing

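EGFR, HBEGF, NRG1 and ERRFI1 kept their direction and call in all 18 other settings, and BTC in the 17 that gave it a value. Their log2 fold changes ran from 0.94 to 1.62 for EGFR, 0.67 to 0.98 for HBEGF, 0.49 to 0.95 for NRG1, 0.81 to 1.97 for BTC and -1.34 to -1.05 for ERRFI1. The 18th setting, offsets for GC content and length, was chosen after seeing the data.

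The members that fell numbered 1, not 2, with library size alone, no filter on low counts, genes of mean FPKM of at least 1, limma on log2(FPKM + 0.5), log2(FPKM + 0.05) or log2(TPM + 0.5), a replicate block and offsets for GC content and length, and 1 to 2 when a library was left out. The members that rose stayed at 4 when any library was left out.

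TGFA, not called, was at 0.116, but at -0.0147 with offsets and from -0.0232 to 0.202 when a library was left out, below 0 without tau-labelled library 1 or control-labelled library 1. EREG, not called, was at -0.0746, but at 0.0417 with library size alone, 0.0467 and 0.0577 with limma on log2(FPKM + 0.5) and log2(FPKM + 0.05), 0.0762 with log2(TPM + 0.5), and from -0.206 to 0.113 when a library was left out, above 0 without tau-labelled library 3 or control-labelled library 2. The cause was not tested.

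Among the other family genes, 0 rose and 0 fell with a mean FPKM of at least 1 and with limma on log2 FPKM or TPM, where few have a value or pass, and 0 to 1 rose when a library was left out. In ligand shedding and transport, 1 rose with upper quartile scaling, no filter or a replicate block, 1 to 2 rose when a library was left out, and 6 fell with offsets. In receptor downregulation 1 fell with library size alone, limma on log2 FPKM or TPM, or a replicate block, 8 fell with offsets, and 1 to 3 fell when a library was left out. Of the genes induced by EGF receptor signalling, 5 to 9 fell when a library was left out, while 2892 to 3920 of all genes tested fell. With offsets 4203 of 17547 genes tested fell, beside 3830 of 17927 without them.

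Replicate numbers showed no sign of pairing: the same-numbered deviations correlated at -0.0375, -0.0108 and -0.0938, and the others at -0.0763 to 0.107. Deviations from a mean of 3 libraries are tied to each other, so a weak pairing could not be seen. With a replicate block 4 members rose and 1 fell, and 3181 genes rose and 3139 fell. No depth-limited difference can be read for ERBB3, ERBB4, EPGN, NRG4 or AREG.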
